A study of Mus musculus with 12 samples.

Results

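The genes described here encode the light response of cone photoreceptors, and their RNA was measured in whole mouse retina at 2 ages and after raised intraocular pressure (IOP). They are the 10 genes Opn1sw, Opn1mw, Gnat2, Gnb3, Gngt2, Pde6c, Pde6h, Cnga3, Cngb3 and Arr3 among 25124 listed genes, found by symbol in each table of values. The genes were chosen by name with earlier results of these data in view, namely their FPKM in IOP against control eyes and at 18 against 3 months. The values of the 10 genes in those comparisons are therefore a description. Where a cone gene is said to be called, this only places it against the thresholds of the fit over all genes and is not evidence for the gene or the group.

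All animals were wild-type C57BL/6 mice, and the 12 libraries fell into 6 groups of 2. In 3mo IOP and 18mo IOP, 1 eye of a 3-month-old or 18-month-old animal was held at 30 mmHg for 1 h and its retina was taken on day 2. The 3mo control and 18mo control libraries came from the untreated contralateral eyes at the same ages and day. In 4xIOP the elevation was given 4 times at intervals of 2 weeks, beginning at 3 months of age, with retina taken on day 2 after the last, and 4xIOP control was the contralateral eye. Control eyes thus belonged to animals that had undergone the procedure in the other eye, and which control and treated libraries shared an animal is not given in the sources used here. Each group holds 2 libraries, so p-values measure only the spread between them. The comparisons ask how the cone genes differ with age, after a single elevation at each age, and after repeated elevation.

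In a cone, light is absorbed by an opsin, which activates the G protein transducin, made of an alpha, a beta and a gamma subunit. Transducin releases the inhibitory gamma subunit of phosphodiesterase 6, the enzyme lowers cyclic GMP, and cation channels gated by cyclic GMP close. Cone arrestin ends the signal by binding the phosphorylated opsin. Rods use a parallel set of proteins encoded by other genes, and in mouse retina rods outnumber cones by far. Most mouse cones make both the short-wavelength opsin of Opn1sw and the medium-wavelength opsin of Opn1mw, in proportions that vary from ventral to dorsal retina. Gnb3, the beta subunit of cone transducin, is also used by ON bipolar cells, the interneurons that respond to light onset.

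Each of the 10 genes was covered by at least 275 reads in every library. Levels are FPKM, fragments per kilobase of transcript scaled to the mapped tags of the library, and a value after ± is the SD of 2 libraries. A difference is a log2 fold change of FPKM + 0.5 with its standard error (SE). A gene was called where limma gave an adjusted p (Benjamini-Hochberg) no higher than 0.05 together with a log2 fold change of 1 or more in size. Some libraries stood apart. Protein-coding transcripts shorter than 1000 bases had a median FPKM that, divided by the median of those with 4000 bases or more, gave 6.32 in 3mo control 2 and 2.53 in 3mo control 1. This ratio lay between 4.22 and 4.94 in 3mo IOP, between 1.44 and 1.71 in the 18-month libraries, and between 1.77 and 2.48 in the repeated-IOP libraries. Library 18mo IOP 2 held the lowest of the 4 values at 18 months for 9 of the 10 genes. Library 4xIOP control 2 differed from its replicate in Opn1sw alone among them by more than 1.5-fold.

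Of the 10 genes, 6 had an entry among the RefSeq promoters of GRCm38.p6 (mm10), with 7 windows in all. The sequences of the opsin pair, cone transducin alpha and cone arrestin are shown, as the genes of the first and last steps of the cascade, with the letters upstream of the start. Each sequence below is the 250 bases before the annotated start, in the direction of transcription. Capitals mark matches, on either strand, to TAATCC (the core bound by the photoreceptor factor CRX and its relatives), to TAATTA (a homeodomain core) and to AGGTCA (a nuclear receptor half-site).
Arr3, chrX:100605247-100605496, plus strand: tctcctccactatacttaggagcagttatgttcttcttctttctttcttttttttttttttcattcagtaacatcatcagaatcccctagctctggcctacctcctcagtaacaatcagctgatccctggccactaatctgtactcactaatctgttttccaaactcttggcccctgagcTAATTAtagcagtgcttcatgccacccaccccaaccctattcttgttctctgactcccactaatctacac
Gnat2, chr3:108092816-108093065, plus strand: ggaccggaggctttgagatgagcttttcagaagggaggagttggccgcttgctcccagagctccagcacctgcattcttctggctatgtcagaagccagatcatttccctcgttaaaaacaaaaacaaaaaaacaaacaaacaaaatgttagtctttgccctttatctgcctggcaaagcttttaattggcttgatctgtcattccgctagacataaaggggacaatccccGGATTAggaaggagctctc
Opn1mw, chrX:74127216-74127465, plus strand: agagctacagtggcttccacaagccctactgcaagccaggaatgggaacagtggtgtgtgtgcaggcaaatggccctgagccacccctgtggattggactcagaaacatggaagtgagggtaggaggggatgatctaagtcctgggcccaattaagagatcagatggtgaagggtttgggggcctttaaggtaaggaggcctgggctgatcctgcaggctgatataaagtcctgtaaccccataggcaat
Opn1sw, chr6:29380514-29380763, minus strand: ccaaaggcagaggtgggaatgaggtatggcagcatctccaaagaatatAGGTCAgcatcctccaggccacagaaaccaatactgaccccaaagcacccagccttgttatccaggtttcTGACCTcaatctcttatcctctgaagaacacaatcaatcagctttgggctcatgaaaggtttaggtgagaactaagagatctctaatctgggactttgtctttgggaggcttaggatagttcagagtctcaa

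The Arr3 window held TAATTA at 70 bases before the start. In the Gnat2 window TAATCC lay on the opposite strand, read as GGATTA, at 19 bases before the start. The Opn1sw window held AGGTCA at 202 bases and its reverse complement TGACCT at 132 bases before the start. None of the 3 motifs was matched in the other 4 of the 7 windows, that of Opn1mw and those of Cnga3 and Pde6h, which are not shown. Over all 32851 promoter windows of this length, 6.25% held TAATCC, 4.84% TAATTA and 14.02% AGGTCA, and the motifs do not overlap each other in these windows. A match is a description of the letters and was not tested for binding.

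Cone genes ranged from 3.14 to 462 FPKM in young control retina. Gngt2, the gamma subunit of cone transducin, and Pde6h, the inhibitory subunit of cone phosphodiesterase, were highest in 3mo control at 462 ± 312 and 457 ± 270 FPKM. They were followed by Opn1mw at 199 ± 20.1, Gnat2 at 167 ± 30.6, Arr3 at 150.5 ± 6.69, Gnb3 at 149.5 ± 15.4 and Opn1sw at 146 ± 20.2 FPKM, and each of these overlapped the next in its libraries. Pde6c, the catalytic subunit of cone phosphodiesterase, stood at 44.0 ± 4.19 FPKM. The channel subunits were lowest, with Cngb3 at 8.67 ± 0.723 and Cnga3 at 3.14 ± 0.810 FPKM. The wide SD of Gngt2 and Pde6h came from 3mo control 2, which read 682 and 647 FPKM against 241 and 266 in 3mo control 1.

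**Figure D1:**
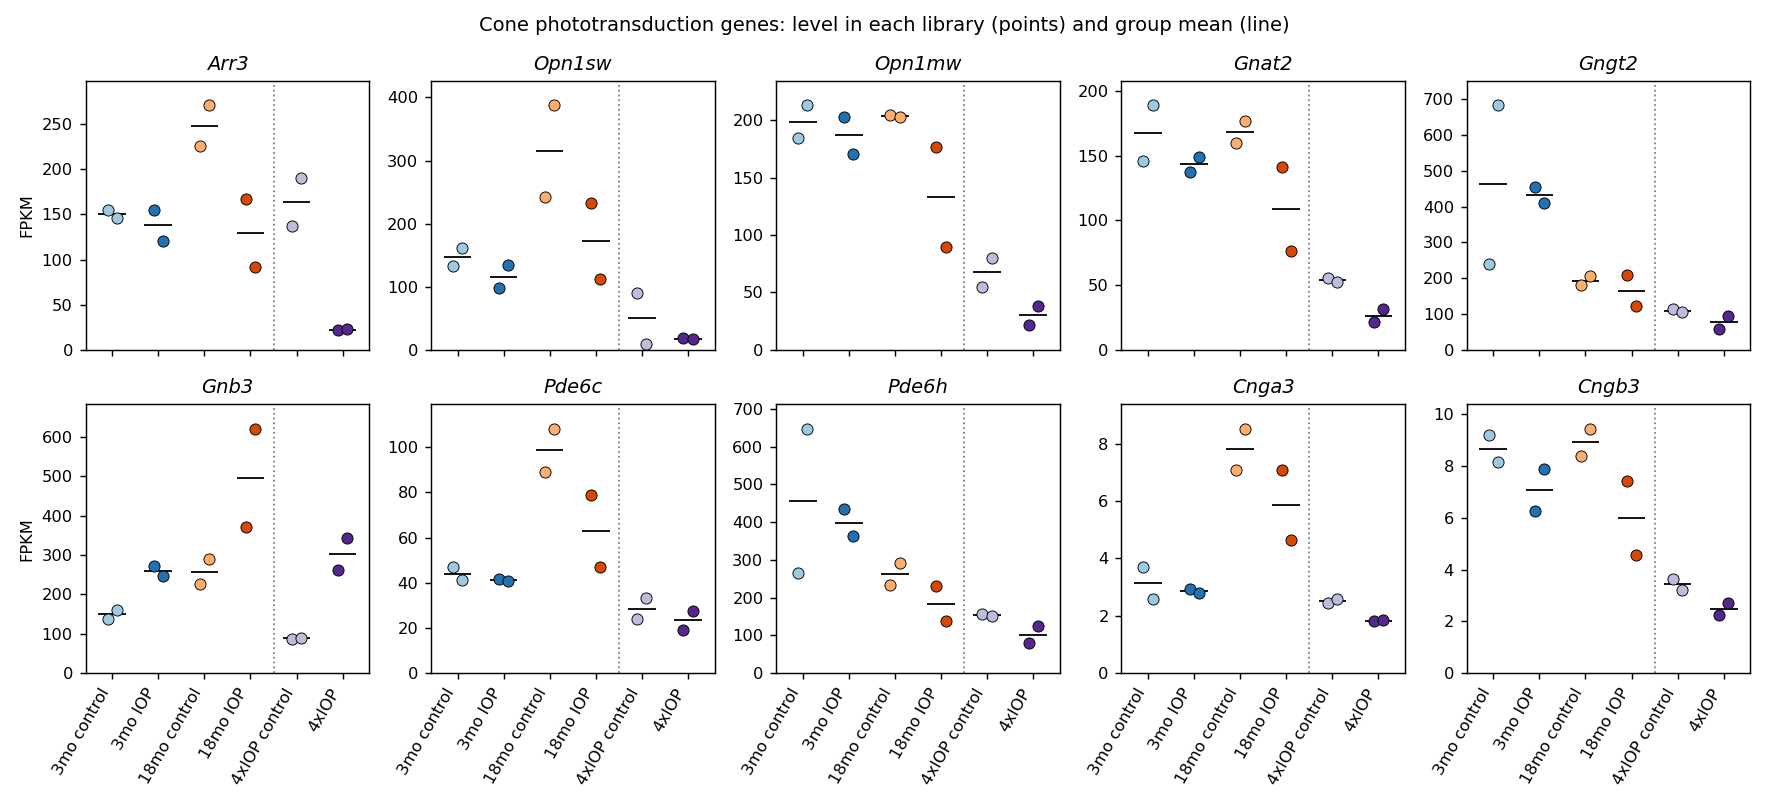
FPKM of each cone gene (linear vertical axis from 0) in every library, as points coloured by group, with the group mean as a line; a dotted line parts the single-IOP table on the left from the repeated-IOP table on the right, whose values were scaled separately. Arr3 dropped to 21.8 and 22.9 FPKM in 4xIOP, while Gnb3 stood at 262 and 343 FPKM there.

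With age in untreated eyes, the catalytic phosphodiesterase subunit and the channel alpha subunit were more than 2-fold higher at 18 than at 3 months, and the short-wavelength opsin was 2.10-fold higher. The medium-wavelength opsin, transducin alpha and the channel beta subunit differed by under 0.05 on the log2 scale. Both short transcripts, Gngt2 and Pde6h, had negative values that rested on 3mo control 2. Of the 10 genes, 3 were called higher and 0 lower, where 11.6% of the 13731 tested genes were called higher and 11.6% lower. Both old libraries lay above both young ones for 5 of the 10 and below them for 1, beside 45.7% and 32.8% of all tested genes. Their median log2 fold change was 0.38 beside 0.16 over all tested genes. In bulk retina, fewer cells of a type and less RNA per cell cannot be told apart.

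Opn1sw (chromosome 6, 29376671 to 29380513) read 132 and 161 FPKM in 3mo control and 243 and 387 in 18mo control. Both old control libraries lay above the young ones, with a log2 fold change of 1.07 (SE 0.382). Its call was lost in all 12 alternative settings, where the value ranged from 0.73 to 1.41. Opn1mw (chromosome X, 74127466 to 74150755) read 185 and 213 FPKM at 3 months and 205 and 203 at 18 months, so that the groups overlapped.

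Gnat2, transducin alpha (chromosome 3, 108093066 to 108101430), had 145 and 189 FPKM in 3mo control and 160 and 176 in 18mo control, a log2 fold change of 0.02 (SE 0.301). Gnb3 (chromosome 6, 124834240 to 124840275) had 139 and 160.4 FPKM at 3 months and 226 and 289.9 at 18 months, higher by 0.78 (SE 0.294) with no overlap. Gngt2 (chromosome 11, 95842295 to 95845731) had 241 and 682 FPKM at 3 months and 180.0 and 205 at 18 months. Both old values of Gngt2 lay under the young ones, and its log2 fold change of -1.08 (SE 0.467) became -1.83 without 3mo control 1 and -0.33 without 3mo control 2.

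Pde6c (chromosome 19, 38132781 to 38183951) read 47.0 and 41.1 FPKM in 3mo control and 89.2 and 108 in 18mo control. It was called, at a log2 fold change of 1.15 (SE 0.256) and a fold of 2.22. The call was lost with median-of-ratios size factors (0.98), with voom (0.99), with the length trend removed (0.99) and without 18mo control 2 (1.01). Pde6h (chromosome 6, 136954523 to 136963483) read 266 and 647 FPKM at 3 months and 233 and 292 at 18 months, and the groups overlapped. Its log2 fold change of -0.67 was -1.31 without 3mo control 1 and -0.028 without 3mo control 2. Cnga3, the channel alpha subunit (chromosome 1, 37219205 to 37263384), read 3.72 and 2.57 FPKM at 3 months and 7.10 and 8.52 at 18 months. It was called at 1.20 (SE 0.245), a fold of 2.30, the highest among the 10. This call was lost without 3mo control 2 (0.97) and without 18mo control 2 (1.08). Cngb3, the channel beta subunit (chromosome 4, 19280850 to 19510623), overlapped between ages at 9.18 and 8.16 against 8.38 and 9.44 FPKM. Arr3 (chromosome X, 100605497 to 100618493) had 155 and 146 FPKM at 3 months and 226 and 271 at 18 months, higher by 0.71 (SE 0.301) without overlap.

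The age difference of a cone gene moved with the length of its transcript. Gngt2 and Pde6h have 549 and 552 bases, and the next members are Opn1mw with 1212, Arr3 with 1340, Gnat2 with 1764, Gnb3 with 1834, Opn1sw with 2403, Pde6c with 2939, Cnga3 with 3546 and Cngb3 with 4688 bases. Across the 10 genes Spearman's rank correlation between log2 fold change and length was 0.685, and across all 13731 tested genes it was 0.405, as a description across genes that share libraries. With the trend of each library over transcript length removed, the median of the 10 genes was 0.77. Under that setting Pde6h stood at 0.38 in place of -0.67, Gngt2 at -0.03, Opn1mw at 0.64, and Arr3 was called at 1.21. The part of transcript length or RNA quality in the age difference was not tested.

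**Figure D2:**
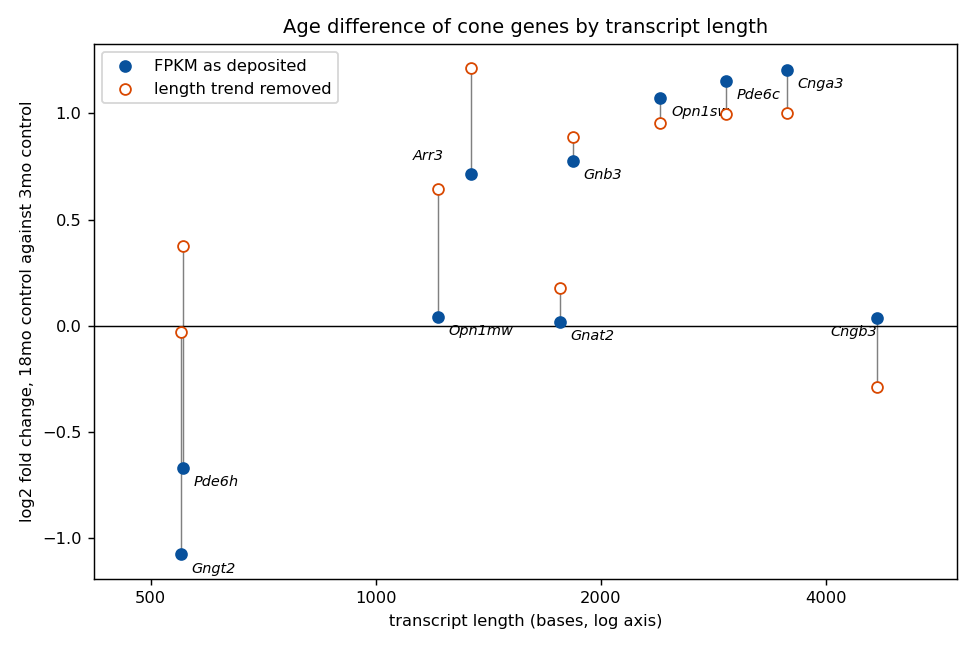
Log2 fold change between 18mo control and 3mo control (vertical axis) of the 10 cone genes against transcript length in bases (log axis), from FPKM as deposited (filled) and with each library's trend over transcript length removed (open), joined by a line per gene. The shortest transcripts, Gngt2 and Pde6h, move up most, to -0.03 and 0.38, and Cngb3 moves down to -0.29.

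Most rod counterparts had negative log2 fold changes with age. Gngt1, the gamma subunit of rod transducin, fell by 2.16 on the log2 scale (SE 0.483, limma adjusted p = 0.0110). Sag, the rod arrestin, fell by 1.40 (SE 0.467, limma adjusted p = 0.0397), and Pde6g, the inhibitory subunit of rod phosphodiesterase, fell by 1.38 (SE 0.340, limma adjusted p = 0.0147). Of 9 rod genes 3 were called lower and 0 higher, and their median was -0.79. Without 3mo control 2 Sag stood at -0.96 and was not called, and leaving out 1 or the other 18mo control library kept none of the 3 calls, with values from -2.19 in Gngt1 to -1.25 in Pde6g. In 7 of 8 cone and rod pairs the cone gene had the higher log2 fold change, with a median difference of 1.24, and the largest differences were in Arr3 over Sag at 2.12 and Cnga3 over Cnga1 at 1.99. Cngb3 and Cngb1 were the exception at -0.14.

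Outside the core cascade, 2 of 7 other cone-enriched genes were called higher with age, Ccdc136 at 1.66 (SE 0.270, limma adjusted p = 0.00571) and Sall3 at 1.07 (SE 0.247). Sall3 read 0.543 and 0.331 FPKM in 3mo control and 1.27 and 1.67 in 18mo control. It passed the filter of 0.5 FPKM through the 18-month libraries, so its higher call carries no weight. Of 13 genes shared by rods and cones, 1 was called higher and 2 lower. Rgs9bp, the anchor of the GTPase-activating complex that shuts off transducin, rose by 1.17 (limma adjusted p = 0.0112), Guca1a, a guanylate cyclase activator, fell by 1.54 (limma adjusted p = 0.0224) and Pdc, the transducin-binding phosducin, fell by 1.34 (limma adjusted p = 0.0390). Without 3mo control 2 these 3 calls were lost, with Rgs9bp at 0.78, Guca1a at -0.93 and Pdc at -0.96, and they were also lost when 1 or the other 18mo control library was left out. Of 8 photoreceptor transcription factors only Mef2d was called, at 1.18 (limma adjusted p = 0.0105). Without 3mo control 2 Mef2d stood at 0.79 and Sall3 at 0.91 and neither was called, while the call of Ccdc136 was lost in 0 of 12 alternatives. The call of Mef2d was also lost without 1 or the other 18mo control library, and that of Sall3 without 18mo control 2. Of 9 genes for outer segment structure 0 were called with age, with 2 under an unadjusted p of 0.05 in limma.

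Markers of other cells moved with age as well. Pigment epithelium markers summed to 186 to 210 FPKM in 3mo control and 3.40 to 10.8 in 18mo control, with Mlana at 0 in 18mo control 2. Of the 7 tested, 3 (Rpe65, Lrat and Mlana) averaged under 0.5 FPKM in 18mo control and passed the filter through the 3-month libraries, so their lower calls carry no weight. Of 8 ganglion cell markers 5 were called lower, with sums of 326 to 631 against 35.3 to 81.7 FPKM. Higher calls were made in 4 of 8 Muller glia markers (sums of 760.3 to 1140.2 against 1703 to 2104 FPKM), in 4 of 10 bipolar cell markers (686 to 1579 against 795 to 961 FPKM, with a median log2 fold change of 0.73) and in 3 of 6 microglia markers, of which Cx3cr1 averaged under 0.5 FPKM in 3mo control. Calls in the ganglion, Muller glia, bipolar and microglia lists were lost when 1 library was left out. Every microglia call was lost without 18mo control 2. Blood markers summed to 19.5 to 262 against 166 to 426 FPKM. Their part in the cone gene values was not tested.

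A single elevation at 3 months left 9 of the 10 cone genes within 0.35 of their controls on the log2 scale. Gnb3 was the exception, with both treated libraries above both controls, beside 28.6% of all tested genes. Cngb3 had both below, beside 3.95%. The count of calls was 0 of 10, where 0.568% of tested genes were called higher and 0.00728% lower. The median of the 10 was -0.09 beside 0.13 over all tested genes.

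Gnb3 read 273 and 246 FPKM in 3mo IOP against 139 and 160.4 in 3mo control. Its log2 fold change of 0.80 (SE 0.294), a fold of 1.73, stayed between 0.69 and 0.90 when each library of these groups was left out. Opn1sw read 97.9 and 134 FPKM after IOP, overlapping the controls, and was lower by 0.35 (SE 0.382). Cngb3 read 6.25 and 7.88 FPKM, both under the controls, and was lower by 0.28 (SE 0.239). Opn1mw, at 203 and 171 FPKM, Arr3, at 155 and 121, and Gnat2, at 137 and 149, overlapped their controls, as did Pde6c at 41.6 and 40.96 and Cnga3 at 2.95 and 2.80 FPKM. Gngt2 had 453 and 410.4 FPKM and Pde6h 434 and 363, between the divergent controls in each case. Leaving out 3mo control 1 or 3mo control 2 turned Gngt2 from -0.66 to 0.84. Of 9 rod genes 0 were called, with 0 under an unadjusted p of 0.05, and their range was -0.26 to 0.10. Of these 9, 7 had negative values and 4 were lower in both treated libraries, beside 3.95% of all tested genes.

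Markers of other cells were read beside Gnb3 after IOP at 3 months. Of 7 tested pigment epithelium markers 5 had negative and 2 positive log2 fold changes, with a median of -0.34. In this list 1 was called higher, Mlana, at 124 and 69.0 FPKM against 11.4 and 4.57 (log2 fold change 3.59, SE 0.530, limma adjusted p = 0.0325), and the summed level of the list was 177 to 446 FPKM against 186 to 210. Of 6 microglia markers 5 were higher in both treated libraries, with sums of 12.1 to 14.8 against 6.40 to 8.53 FPKM and 0 called, 1 having an unadjusted p under 0.05 in limma. Of 8 Muller glia markers 3 were higher in both, with 0 called and 1 under an unadjusted p of 0.05, and their sums were 917 to 1298 against 760.3 to 1140.2 FPKM. The highest of these, Vim, had a log2 fold change of 1.35. The call of Mlana was lost when any 1 of the 4 libraries was left out. Their part in the value of Gnb3 was not tested.

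A single elevation at 18 months left 9 of the 10 cone genes lower and Gnb3 higher. The lower values were led by Arr3, at 0.503 of its control level, and Opn1sw, at 0.528. In 8 of the 9, both treated libraries were under both controls, beside 9.89% of all tested genes with such values, and for Gnb3 both were above, beside 36.5%. The count of calls was again 0 of 10, where 0.117% of genes were called higher and 0.00728% lower, and the median of the 10 was -0.63 beside 0.09 over all tested genes.

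Arr3 read 167 and 92.1 FPKM in 18mo IOP against 226 and 271 in 18mo control, lower by 0.99 (SE 0.301). Opn1sw read 232 and 112 FPKM against 243 and 387, lower by 0.92 (SE 0.382). Opn1mw read 177 and 90.0 FPKM against 205 and 203, and Gnat2 141 and 76.5 against 160 and 176, both lower by 0.69. In each of these genes the second treated library was the low one and the first lay closer to the controls.

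Pde6c read 78.8 and 47.1 FPKM after IOP, lower by 0.68 (SE 0.256), and Pde6h 229 and 138 FPKM, lower by 0.55 (SE 0.433). Cngb3, at 7.42 and 4.56 FPKM, and Cnga3, at 7.07 and 4.63, were lower by 0.57 and 0.41. Gngt2, at 208 and 122 FPKM, overlapped its controls. Gnb3 read 371 and 621 FPKM against 226 and 289.9, higher by 0.91 (SE 0.294), its high value falling in the library in which the other members were lowest.

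The size of these differences rested on 18mo IOP 2. Without it the median of the 10 genes was -0.22, with Arr3 at -0.56, Opn1sw at -0.40, Gnat2 at -0.25 and Gngt2 at 0.11. Without 18mo IOP 1 the median was -0.99, with Arr3 at -1.42 and Opn1sw at -1.44. Gnb3 was higher by 0.53 without the former and by 1.28 without the latter. Summed amacrine and horizontal cell markers were 44.7 to 131 FPKM in 18mo IOP and 63.7 to 109 in 18mo control, and bipolar cell markers were 595 to 1068 against 795 to 961. Lens markers, 3 of 3 tested higher in both libraries and 0 called, summed to 3.81 to 10.6 against 1.78 to 2.77 FPKM. Of these 3, 1 (Cryba1) averaged under 0.5 FPKM in a group. Blood markers, 5 of 5 lower in both libraries and 0 called (limma), summed to 44.3 to 54.3 against 166 to 426 FPKM, and 6 of 8 Muller glia markers were higher in both, with 0 called. Their part in the cone gene values was not tested.

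The median of the rod genes after IOP at 18 months was -0.31. Of these, 4 of 9 were lower in both libraries, 0 were called and 0 had an unadjusted p under 0.05 in limma. In 7 of 8 pairs the cone gene had the lower log2 fold change, with a median cone minus rod difference of -0.28. These differences rested on 18mo IOP 2, the lowest at 18 months for 9 of the 10 cone genes. Every rod gene was instead lower in 18mo IOP 1 than in 18mo IOP 2. Without 18mo IOP 2 most pairs turned, though Arr3 stayed under Sag. Gnat2 then stood at -0.25, where Gnat1 read 3061 FPKM in 18mo IOP 1 against 4868 and 4277 in controls. Sag had a log2 fold change of 0.42 where Arr3 had -0.99. All 7 other cone-enriched genes had negative values, from -0.85 in Kcne2 to -0.08 in Thrb, with 0 called and 1 under an unadjusted p of 0.05. All 13 shared genes were also negative, from -0.68 to -0.02.

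The difference in response between the ages was taken as the log2 fold change at 18 months less that at 3 months. Of the 10 cone genes 9 had negative values, from -0.86 in Arr3 (SE 0.426) to -0.29 in Cngb3 (SE 0.338), and Gnb3 stood at 0.11 (SE 0.415). The median of the 10 was -0.48 beside -0.041 over all tested genes. These values are differences of those by which the genes were chosen, so they carry no test. Over all 13731 genes the limma interaction called 0 on FPKM and 0 with voom on recovered reads, and 218 had an unadjusted p under 0.05.

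Between the treated eyes of the 2 ages, the short transcripts were lowest at 18 months. Gngt2 was called lower at -1.43 (SE 0.467), 1 of 10 beside 11.6% of genes called lower, and Pde6h had -1.16 (SE 0.433). No member was called higher, beside 10.2% of genes. Gnb3 at 0.89, Cnga3 at 0.89 and Pde6c at 0.56 were higher in both 18mo IOP libraries and Gngt2 and Pde6h lower, that is 3 and 2 of 10 beside 43.2% and 34.5% of all tested genes. The median was -0.20 beside 0.09 over all genes. With the length trend removed Gngt2 stood at -0.37 and Pde6h at -0.09, and Gnb3 was called at 1.03. Spearman's rank correlation between log2 fold change and length was 0.721 over the 10 genes and 0.460 over all tested genes. The 18mo IOP libraries also enter the comparison with 18mo control. Between the treated eyes ganglion cell markers summed to 455 to 524 FPKM at 3 months and 31.7 to 89.2 at 18 months and 8 were called lower, 1 of them, Pou4f2, averaging under 0.5 FPKM at 18 months. Pigment epithelium markers summed to 177 to 446 and 2.52 to 4.75 FPKM, and 4 of the 7 tested averaged under 0.5 FPKM in 18mo IOP and passed the filter through the 3-month libraries. Higher calls were made in 6 of 8 Muller glia markers (sums of 917 to 1298 and 3042 to 3170 FPKM), in 4 of 10 bipolar cell markers (806 to 1168 and 595 to 1068 FPKM, with a median log2 fold change of 0.72) and in 2 of 6 microglia markers (12.1 to 14.8 and 15.9 to 47.6 FPKM). Calls in the ganglion, Muller glia, bipolar and microglia lists were lost when 1 library was left out. Every microglia call was lost without 1 or the other 3mo IOP library. The part of these cell types in the cone gene values was not tested.

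**Figure D3:**
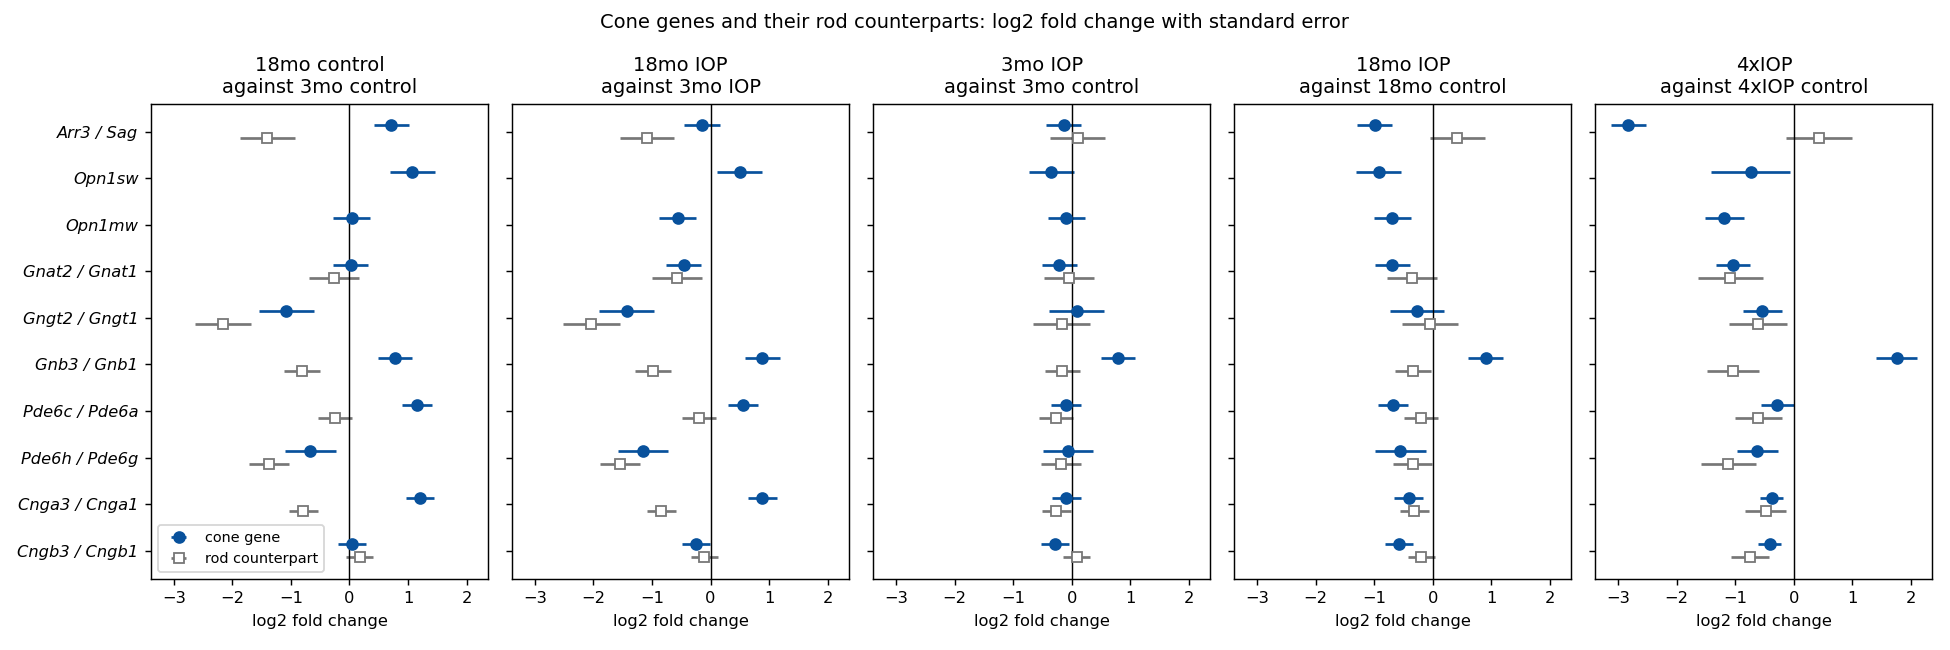
Log2 fold change with its SE (horizontal axis) of each cone gene (filled circle) and, for 8 of them, the rod counterpart (open square) in the 5 comparisons named above the panels, with a line at no difference. Gnb3 lies to the right of 0 in all 5 panels, and in 4xIOP Arr3 at -2.83 and Sag at 0.43 lie on opposite sides.

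Repeated elevation went with a loss of cone arrestin RNA and a gain of Gnb3. Arr3 fell 7.09-fold, Opn1mw fell 2.28-fold and Gnat2 fell 2.05-fold, while Gnb3 rose 3.38-fold. Of the 10 genes 3 were called lower and 1 higher, where 0.693% of the 13718 tested genes were called lower and 5.45% higher. Both treated libraries were under both controls for 7 genes, beside 12.7% of all tested genes, and above them for Gnb3, beside 27.7%. The median of the 10 was -0.58 beside 0.10 over all genes.

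Arr3 read 137 and 190.1 FPKM in 4xIOP control and 21.8 and 22.9 in 4xIOP. The treated libraries lay close together and far below the controls, with a log2 fold change of -2.83 (SE 0.302) that ranged from -3.06 to -2.59 when each library was left out. Its call was kept in every alternative tried.

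Opn1mw read 54.9 and 80.3 FPKM in controls and 21.7 and 38.3 after 4 elevations, without overlap and lower by 1.19 (SE 0.333). Its call was lost in 7 of the alternatives, with values from -1.59 to -0.79 when each library was left out. Opn1sw read 90.5 and 9.72 FPKM in controls and 19.1 and 16.7 in 4xIOP, so that the treated values lay between those of the controls. Its log2 fold change of -0.73 (SE 0.676) was -2.31 without 4xIOP control 2 and 0.85 without 4xIOP control 1, so a single control library decided its direction. In 4xIOP control 2 the 9.72 FPKM rested on 989 reads.

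Gnat2 read 55.4 and 52.1 FPKM in controls and 21.5 and 31.3 in 4xIOP, a log2 fold change of -1.04 (SE 0.285), and its call was lost in 5 alternatives, among them that without 4xIOP replicate 1 (-0.77). Gnb3 read 86.6 and 90.0 FPKM in controls and 262 and 343 in 4xIOP, higher by 1.76 (SE 0.351). The value of Gnb3 stayed between 1.56 and 1.95 when each library was left out, though the call was lost when 1 or the other control library was left out and without the filter on low values. Gngt2, at 114 and 105 FPKM in controls and 59.3 and 95.8 in 4xIOP, was lower by 0.53 (SE 0.338).

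None of the enzyme and channel subunits was called. Pde6h read 156 and 151 FPKM in controls and 78.6 and 125 in 4xIOP, lower by 0.62. Pde6c overlapped, at 24.0 and 33.2 against 19.3 and 27.7 FPKM. Cngb3, at 3.64 and 3.23 against 2.23 and 2.69 FPKM, and Cnga3, at 2.43 and 2.59 against 1.80 and 1.84, were lower in both treated libraries by 0.41 and 0.38. In 8 of the 10 genes 4xIOP replicate 1 held the lowest of the 4 values.

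Rod genes had mostly negative values after repeated elevation. Of 9 rod genes 8 were lower in both libraries, with a median of -0.72 and 0 called, 3 having an unadjusted p under 0.05 in limma. Gnat1, rod transducin alpha, had -1.08 (limma adjusted p = 0.411) beside Gnat2 at -1.04. Gnb1, the beta subunit of rod transducin, had -1.04 (SE 0.447, limma adjusted p = 0.267) where Gnb3 had 1.76. Sag read 1700 and 1313 FPKM in controls and 1583 and 2571 in 4xIOP, a difference of 0.43 (SE 0.557), and the cone minus rod difference for arrestins was -3.26, the only pair of 8 in which the cone gene was the lower. The smallest differences were 0.04 for Gnat2 over Gnat1 and 0.07 for Gngt2 over Gngt1. The latter turned without 4xIOP 1, with Gngt2 at -0.19, where Gngt1 read 879 FPKM in 4xIOP 2 against 970 and 929 in controls. Among the 13 shared genes 2 were called, Rgs9bp at -1.27 (limma adjusted p = 0.0117) and Gucy2f, a photoreceptor guanylate cyclase, at -1.08 (limma adjusted p = 0.0268). Impg2, a component of the matrix around photoreceptors, was called at 1.19 (limma adjusted p = 0.0283) among 9 outer segment genes. Of those 9, 7 had negative values and 6 were lower in both treated libraries, with a median of -0.47. The calls of Rgs9bp, Gucy2f and Impg2 were each lost when 1 or the other control library was left out, and Gucy2f stood at -0.77 without 4xIOP replicate 1. Of 6 tested other cone-enriched genes and 8 transcription factors 0 were called, with 1 and 3 under an unadjusted p of 0.05. Both treated libraries were under both controls for 4 of these 6, 5 of these 8 and 12 of the 13 shared genes. The share over all tested genes was 12.7%.

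Markers of lens, microglia and pigment epithelium moved with repeated elevation. Lens markers summed to 39.4 to 66.9 FPKM in 4xIOP against 0.517 to 3.15 in controls, where 3 markers were at 0 in 4xIOP control 1 and 4 in 4xIOP control 2. Of the 7 tested, 6 averaged under 0.5 FPKM in controls and passed the filter only through 4xIOP, so their higher calls carry no weight. Microglia markers summed to 32.4 to 35.0 against 3.67 to 3.88 FPKM, and 3 of the 6 averaged under 0.5 FPKM in controls. Pigment epithelium markers summed to 3.58 to 7.04 against 28.6 to 39.2 FPKM, and 2 of the 4 tested averaged under 0.5 FPKM in 4xIOP. Of 8 Muller glia markers 6 were higher and 2 lower in both treated libraries and 1 was called, Vim, higher by 1.74 (SE 0.298, limma adjusted p = 0.00191) but not called when 1 or the other control library was left out, with sums of 1016 to 1070 against 983 to 1076 FPKM. Ganglion cell markers summed to 138 to 256 FPKM in 4xIOP and 138 to 257 in controls. Bipolar cell markers, relevant to Gnb3, had a median log2 fold change of -0.09 after repeated elevation, with 0 of 10 called, and -0.13 and -0.11 after a single elevation at 3 and 18 months. Among them Grm6 and Trpm1, the receptor and channel of ON bipolar cells, read 4.14 and 4.94 and 35.2 and 39.5 FPKM in controls and 4.40 and 3.56 and 43.7 and 42.0 in 4xIOP. With age the median of the bipolar markers was 0.73 in control eyes and 0.72 in treated eyes, where Gnb3 had 0.78 and 0.89. Of the 10, 4 were called higher in each, Grm6 and Trpm1 among them, and 4 and 3 had negative values. The call of Grm6 was lost in 0 of 12 alternatives. That of Trpm1 was lost without 18mo control 2 and, in treated eyes, without 1 or the other 3mo IOP library. The part of the other cell types in the cone gene values was not tested.

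Ratios within a library compare cone genes with each other free of the scaling of libraries. Opn1sw per Opn1mw was 0.716 and 0.754 in 3mo control, 0.483 and 0.782 in 3mo IOP. At 18 months it was 1.18 and 1.91 in control eyes and 1.31 and 1.25 after IOP. Short-wavelength opsin RNA thus exceeded medium-wavelength opsin RNA in all 4 libraries of 18 months and in none of the 4 single-IOP libraries of 3 months. The transcripts of this pair differ in length, and with the length trend removed the log2 fold changes with age were 0.95 for Opn1sw and 0.64 for Opn1mw. In the repeated-IOP libraries, from animals first treated at 3 months of age, the ratio ran from 0.121 in 4xIOP control 2 to 1.65 in 4xIOP control 1, so that a control retina of young animals also lay above 1, with 0.883 and 0.435 in 4xIOP.

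Gnb3 per Gnat2, the beta over the alpha subunit of cone transducin, was 0.953 and 0.851 in 3mo control and 1.98 and 1.65 in 3mo IOP. It was 1.42 and 1.64 in 18mo control and 2.62 and 8.13 in 18mo IOP, with 1.56 and 1.73 in 4xIOP control and 12.2 and 10.97 in 4xIOP. In each of the 3 comparisons of IOP with control the treated values lay above both controls. Arr3 per Pde6c was 3.30 and 3.55 in 3mo control and 3.73 and 2.95 in 3mo IOP, 2.53 and 2.50 in 18mo control and 2.12 and 1.96 in 18mo IOP. In the repeated-IOP libraries it was 5.72 and 5.73 in controls and 1.13 and 0.829 after 4 elevations, so Arr3 was low against another cone gene too. Pde6h per Gngt2, the pair of short transcripts, kept between 0.884 and 1.43 in all 12 libraries.

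**Figure D4:**
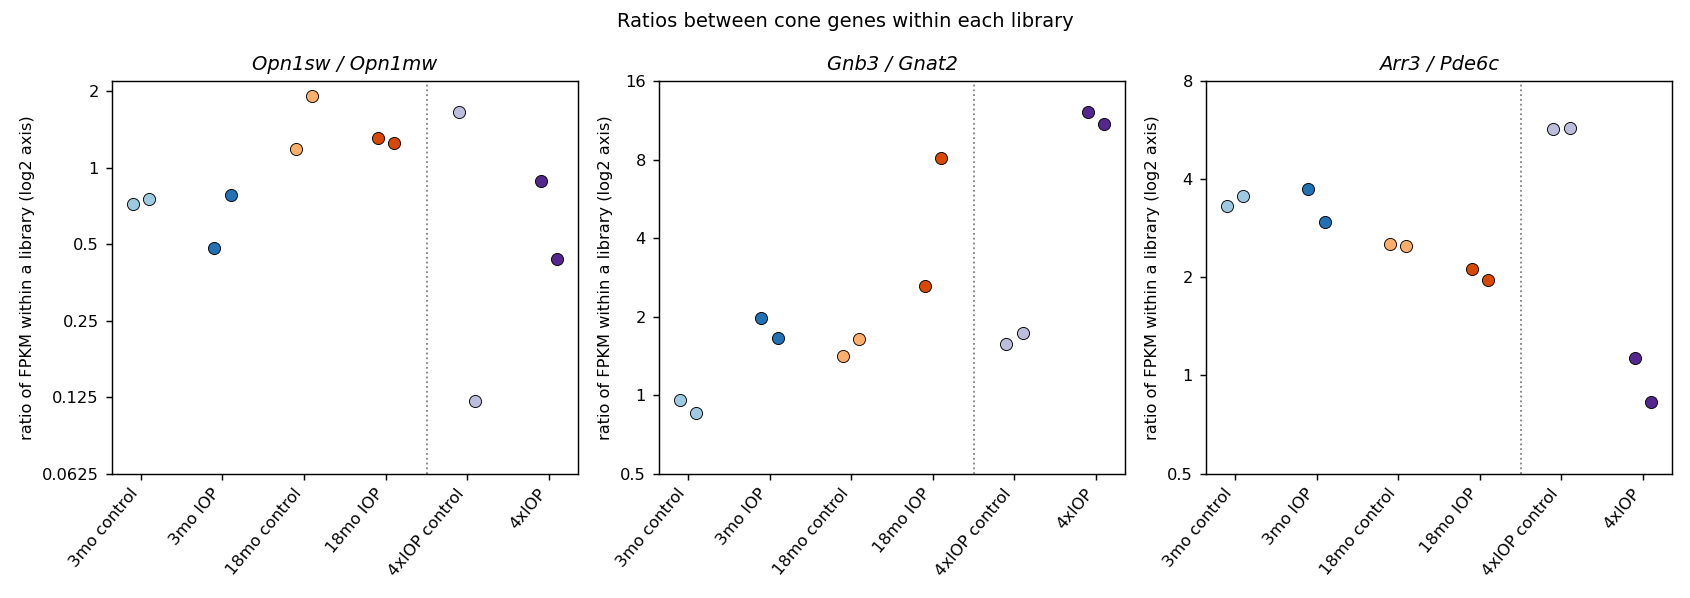
FPKM of one cone gene over another within each library (log2 vertical axis), as points by group, for Opn1sw over Opn1mw, Gnb3 over Gnat2 and Arr3 over Pde6c. Gnb3 over Gnat2 reaches 10.97 and 12.2 in 4xIOP and Arr3 over Pde6c drops to 0.829 and 1.13 there, against 5.72 and 5.73 in its controls.

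Gnb3 varied apart from the other members. Over the 8 single-IOP libraries, Pearson's r of a member's log2(FPKM + 0.5) with the mean of the others, each standardised, was 0.89 for Arr3, 0.82 for Gnat2, 0.76 for Opn1mw and Opn1sw and 0.74 for Cngb3. It was 0.57 for Pde6c, 0.31 for Cnga3, 0.25 for Pde6h, 0.03 for Gngt2 and -0.55 for Gnb3. With the length trend removed, Pde6h stood at 0.92, Pde6c at 0.89, Cnga3 at 0.69, Gngt2 at 0.49, Cngb3 at 0.23 and Gnb3 at -0.28. These values describe 8 libraries that share depth and RNA quality with every gene, and carry no test.

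The genes outside the list whose pattern over the 8 libraries was most like the mean of the cone genes were A930009A15Rik with r = 0.971, 4833417C18Rik with 0.958, Gulo with 0.952, Klhl4 with 0.934 and Crxos with 0.928. With the length trend removed they included Gm36210 with 0.961, Gsg1 with 0.952, Sema4c with 0.946 and Slc8a3 with 0.939, so the names depended on that step. Other cone-enriched genes had a median r of 0.68 with the mean of the 10, bipolar cell markers 0.36 and rod genes -0.13. With the length trend removed these medians were 0.73, 0.57 and -0.38.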

How the data were processed

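RNA of 12 fresh mouse retinas was read as poly(A)-enriched, strand-specific libraries. Following the study's methods, the authors aligned reads to mm10 with STAR 2.7.8a and counted uniquely mapped exon tags with HOMER, on the transcribed strand and with a single isoform per gene. The deposited values are FPKM, in separate tables for the single-IOP and the repeated-IOP libraries, so no test was made across tables. FPKM times transcript length came to whole reads, within 0.25 read, for 100% of the values checked in every library, which gave the reads and a depth of 39766234 to 59455051 mapped tags per library. Of the tags, 44.2% to 71.5% lay in exons. Pde6c was listed by a transcript of 2939 bases in the first table and 2865 in the second. Opn1sw and Gngt2 overlap Calu and Abi3 on the opposite strand, which stranded counting separates.

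Genes averaging 0.5 FPKM or more over a table were tested, 13731 and 13718 of 25124. All 10 cone genes passed this filter in each table. log2(FPKM + 0.5) was fitted with limma 3.58.1 (R 4.3.3, eBayes with a trend), the 8 single-IOP libraries as 4 groups and the 4 repeated-IOP libraries alone, with Benjamini-Hochberg adjustment over all tested genes. The added 0.5 understates differences of low genes. Steps were tested on simulated data. Genes named are the 10 cone genes, rod counterparts, at most 3 called genes of each other photoreceptor list, defining markers and the 5 genes of most similar pattern. Grm6 and Trpm1, and the uncalled Kcne2 and Thrb, were named after their values were seen. Values of 2 other genes that this rule names are not reported here. The genes and lists were chosen with earlier results of these data known. Alternatives were pseudocounts of 0.1 and 1, no filter, median-of-ratios size factors, removal of each library's trend over transcript length (spline with 5 degrees of freedom), voom on recovered reads, a replicate block, the 2 groups alone, and each library left out in turn. A crossed replicate block was added after seeing the data.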

Additional observations from a re-analysis of the deposited data

How the results depend on the processing

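With 2 libraries per group, single libraries and scaling set which cone genes passed the call threshold. Of the medians and counts over the 10 genes under the alternatives, 32 moved and 199 did not, where a count of calls within 1.5 times, such as 2 in place of 3, was not taken as moved. Of 770 values of single genes, 40 lost a call and 10 gained one, and 38 had a sign other than that reported, in 20 of the 60 combinations of gene and comparison. Median-of-ratios size factors moved the median of all tested genes in the age comparison of control eyes from 0.16 to 0.01, and there Opn1mw, Gnat2 and Cngb3 stood at -0.13, -0.16 and -0.13. In that comparison 1 gene in place of 3 was called higher with median-of-ratios size factors and 1 with voom, and the median was 0.77 with the length trend removed. Leaving out each library gave 0 to 2 genes called higher and 0 to 2 called lower. For 18mo IOP against 18mo control the median ran from -0.99 to -0.22 when each library was left out. For 18mo IOP against 3mo IOP, 0 in place of 1 were called lower without the filter, 0 with the length trend removed, 0 with the replicate block, 2 with voom and 2 with only the groups compared, while 1 was called higher and the median was 0.23 with the length trend removed. There, leaving out each library gave medians from -0.57 to 0.18, 0 to 1 called higher and 0 to 1 called lower. When each library was left out, the median interaction ran from -0.89 to -0.083, and the sign turned within the ranges of Gngt2 (-1.11 to 0.39), Pde6h (-1.13 to 0.15), Cngb3 (-0.61 to 0.038) and Gnb3 (-0.26 to 0.48). The cause was not tested. For 4xIOP, 0 in place of 1 were called higher and 1 in place of 3 lower without the filter, and 1 was called lower with the replicate block. Leaving out each library gave 0 to 1 called higher, 1 to 2 called lower and medians from -0.76 to -0.33.

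Same-numbered libraries did not deviate together, with r of -0.28 at 3 months, -0.53 at 18 months, -0.12 between the control groups of the 2 ages and -0.29 in the repeated-IOP libraries, so the numbers were not taken as pairs. With the replicate block 2 genes were called higher with age in control eyes, 0 at either age after a single elevation, and 1 higher after repeated elevation. A crossed replicate block, added after seeing the data, called 0 cone genes at 3 months and 0 at 18 months, and 1 higher and 3 lower after repeated elevation. Over all tested genes it called 298 higher and 14 lower at 3 months in place of 78 and 1, 298 and 8 at 18 months in place of 16 and 1, and 780 and 114 after repeated elevation in place of 748 and 95. Each cone gene had 275 or more reads in every library.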
